A study of Mus musculus with 130 samples.

Results

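The embryos described here are 32 of 50 control mouse embryos, the 16 with the highest and the 16 with the lowest level of a group of genes that are transcribed for a short time around the 2-cell stage. Each control embryo received a score, the mean of log2(CPM + 1) over Zscan4c, Zscan4d, Tcstv1, Tcstv3, AF067061 and Zfp352, where CPM is the library's counts scaled to one common total per library. The embryos were thus chosen by the measured values of these 6 genes. The 18 controls between the groups entered no comparison of high with low. The series holds 130 single embryos analysed here, of which 80 were treated with SR1848, a small molecule used to block the orphan nuclear receptor Nr5a2 (LRH-1), and 50 were controls. All were B6129F1 zygotes collected 5 hours after fertilization and cultured without oil, with 10 µM SR1848 or 0.1% DMSO in the medium from 6 hours on, and taken as 2-cell embryos. Every embryo gave 1 library by Smart-seq2, which copies whole messages into cDNA from an oligo-dT primer. High-score and low-score embryos carry the same strain, stage and treatment labels, and no label sets them apart. The treatment label of every control reads 0.1% DMSO, while its title gives the condition as NT, and the label was followed here. The labels do not tie embryos to a mother, a culture drop or a plate, so a p-value measures the spread between these embryos, which may be technical in part.

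Mammalian embryos begin life on messages stored in the oocyte, and the mouse embryo starts its main wave of transcription in the 2-cell stage. Zscan4 genes, which encode proteins with a SCAN domain and zinc fingers, are switched on in this wave and off again soon after, and in cultured embryonic stem cells they mark a rare passing state. The Tcstv genes, AF067061 and Zfp352, a zinc-finger gene derived from a retrotransposed copy, follow the same course. Embryos of this stage also carry large amounts of oocyte messages that are being removed, so the level of a gene in a 2-cell embryo can reflect new transcription, decay of stored message, or both.

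The score chose the embryos, so its values are a description and carry no test. High-score embryos had scores between 4.58 and 5.40 with a median of 4.88, low-score embryos between 2.53 and 4.03 with a median of 3.54, and the 18 between them 4.04 to 4.54. A difference of 1 in the score is a difference of 2-fold in CPM on average over the 6 genes, apart from the added 1. No gap separated the groups from the embryos next to them: the last embryo inside the high group had a score of 4.577 and the first outside 4.543, and the last inside the low group had 4.031 and the first outside 4.035. SR1848 embryos had scores from 2.96 to 8.86 with a median of 7.36.

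**Figure D1:**
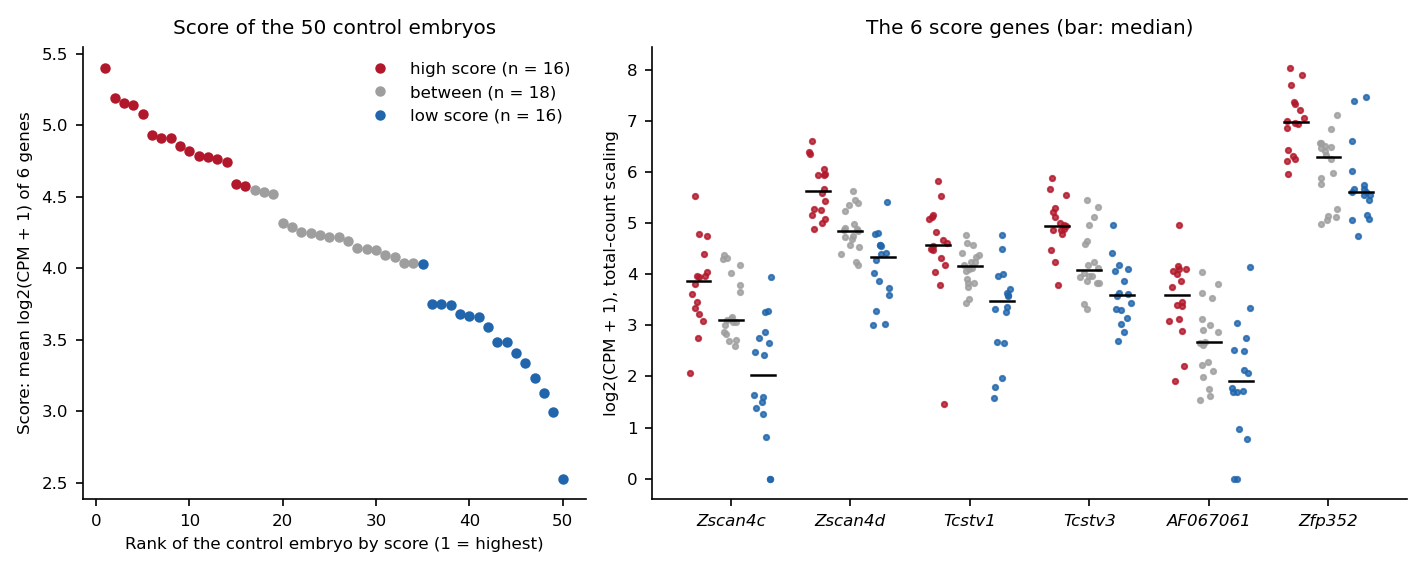
Left, the score of each of the 50 control embryos (mean log2(CPM + 1) of the 6 genes) against its rank, with the 16 high-score embryos in red, the 18 between in grey and the 16 low-score embryos in blue. Right, log2(CPM + 1) of each score gene in the same embryos, with the group median as a bar; the scores run without a step across the edges of the groups, and single genes overlap between them.

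Zfp352 was the most abundant of the 6, with a lowest, median and highest value of 61.5, 126 and 265 CPM in high-score embryos and 26.04, 48.2 and 176 CPM in low-score embryos. Zscan4d had 28.8, 48.6 and 97.0 CPM in high-score embryos and 7.06, 19.4 and 41.7 CPM in low-score embryos. Tcstv3 had 12.9, 30.02 and 58.6 CPM in high-score embryos and 5.51, 11.1 and 30.4 CPM in low-score embryos. Zscan4d was above the highest low-score embryo in 10 of 16 high-score embryos, Zscan4c in 8, Tcstv3 in 7, Tcstv1 in 6, Zfp352 in 3 and AF067061 in 2. Over the 50 controls the pairwise Spearman correlations of the 6 genes, whose values share a library and its depth, ran from 0.13 between AF067061 and Zfp352 to 0.55 between Zscan4d and Tcstv3. When the score was built without Zfp352 and the 16 highest and 16 lowest embryos were taken again, Zfp352 still had a median of 122.97 CPM in the high and 49.1 CPM in the low embryos. Without both Zscan4 genes in the score, Zscan4d had a median of 45.005 CPM in the high and 20.4 CPM in the low embryos. Without both Tcstv genes, Tcstv3 had a median of 29.2 CPM in the high and 11.4 CPM in the low embryos. Its range was 12.9 to 58.6 CPM in the high and 5.51 to 30.4 CPM in the low embryos. Those groups were mostly the same embryos, with 15 of the 16 high and 14 of the 16 low ones kept. AF067061, which shares sequence with Tcstv1, was still in that score. These values are thus a description too.

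These genes share part of their sequence with relatives, which limits what a single member's count means. Of the 31-base words of Zscan4c, the word length kallisto uses by default, 50.8% also occur in Zscan4d, and Zscan4f shares 90.2% of its words with the score genes. Zscan4a, Zscan4b, Zscan4e, Zscan4f and 3 Zscan4 pseudogenes were therefore described and not tested. A list of relatives drawn up by name also kept Pramel20, Pramel48, Gm11487, Eif1ad13, BC147527 and Gm20767 out of the test, of which BC147527 and Gm20767 share words with the score genes. Gm21761 and Gm21818, which share 72.2% and 55.3% of their words with them, were not on that list and were tested. Zscan4f had 37.9, 79.3 and 161 CPM in high-score embryos and 7.99, 30.7 and 45.7 CPM in low-score embryos, and Zscan4a 16.6, 50.6 and 162 CPM in high-score embryos and 8.38, 28.3 and 76.7 CPM in low-score embryos. In 15 of 16 high-score embryos Zscan4f was above every low-score embryo.

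The promoters below are shown because they belong to 3 genes of the score and to 2 that were higher in high-score embryos, and because each holds a short word known from factors of this stage. They are RefSeq windows of 250 bases before to 50 bases after the start of a gene on GRCm38.p6. AAGGTCA is the core that Nr5a2 and related nuclear receptors bind as monomers. GGATTA is the core of bicoid-class homeodomains such as Otx2. Both were searched on both strands, matches are in capitals as they read on the printed strand (TGACCTT and TAATCC are the words on the other strand), and none of the 5 windows holds both words. Zscan4c lies at chr7:11005495-11005794 on the plus strand, Zscan4d at chr7:11166099-11166398 on the minus strand, Zfp352 at chr4:90218570-90218869 on the plus strand, Obox1 at chr7:15547007-15547306 on the plus strand and Gm21304 at chr10:104168265-104168564 on the plus strand.
Zscan4c: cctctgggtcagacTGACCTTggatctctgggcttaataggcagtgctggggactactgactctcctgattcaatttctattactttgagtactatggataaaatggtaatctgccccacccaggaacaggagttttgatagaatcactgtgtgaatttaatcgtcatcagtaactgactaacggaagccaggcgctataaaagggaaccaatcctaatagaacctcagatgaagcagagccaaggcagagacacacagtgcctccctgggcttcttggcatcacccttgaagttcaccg
Zscan4d: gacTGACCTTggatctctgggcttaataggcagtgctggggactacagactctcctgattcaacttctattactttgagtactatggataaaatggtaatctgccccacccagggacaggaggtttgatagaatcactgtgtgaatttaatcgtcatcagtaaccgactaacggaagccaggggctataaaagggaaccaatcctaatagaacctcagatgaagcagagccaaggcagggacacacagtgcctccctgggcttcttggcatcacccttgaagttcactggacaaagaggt
Zfp352: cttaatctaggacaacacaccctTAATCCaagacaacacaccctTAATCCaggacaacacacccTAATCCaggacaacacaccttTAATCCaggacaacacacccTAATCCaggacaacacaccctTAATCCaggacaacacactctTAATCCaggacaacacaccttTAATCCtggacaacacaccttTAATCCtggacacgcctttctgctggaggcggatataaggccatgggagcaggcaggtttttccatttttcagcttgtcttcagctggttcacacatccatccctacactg
Obox1: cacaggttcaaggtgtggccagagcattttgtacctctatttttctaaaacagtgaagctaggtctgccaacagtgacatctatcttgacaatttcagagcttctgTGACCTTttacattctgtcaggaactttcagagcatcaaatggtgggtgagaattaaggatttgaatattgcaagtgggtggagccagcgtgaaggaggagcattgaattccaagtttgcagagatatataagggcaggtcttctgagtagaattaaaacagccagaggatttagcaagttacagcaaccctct
Gm21304: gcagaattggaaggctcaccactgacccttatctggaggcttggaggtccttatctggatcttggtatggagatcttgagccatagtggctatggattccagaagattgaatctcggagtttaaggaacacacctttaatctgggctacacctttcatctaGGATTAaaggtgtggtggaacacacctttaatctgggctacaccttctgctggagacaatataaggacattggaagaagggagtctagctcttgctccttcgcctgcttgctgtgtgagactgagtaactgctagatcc
The Zfp352 window holds 9 copies of the word in a tandem repeat, and the other 4 windows hold 1 match each.

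Across the rest of the transcriptome few genes were called different between the groups, and the ranges of the groups overlapped in each gene tested. Values of these genes are CPM with library sizes scaled by the trimmed mean of M values (TMM). Of 12150 genes tested, 122 were higher and 110 lower in high-score embryos at an adjusted p under 0.05 (edgeR quasi-likelihood test, Benjamini-Hochberg), which is 1% and 0.905% of the genes tested, or 1.91% in either direction. Of the called genes 52.6% were higher, against 62.7% with upper-quartile, 54.8% with relative log expression and 47.6% with total-count scaling. Which direction held more called genes thus depended on the scaling. With the score as a continuous term over all 50 controls, 2.48% of 14812 genes had a positive and 2.75% a negative slope in edgeR at the same threshold. At an unadjusted p under 0.05 there were 2046 genes (16.8%). At least 2-fold differences were seen in 56 of the higher and 20 of the lower genes, and no gene had groups that did not overlap (0%). The median log2 fold change was -0.02 over all genes, 0.94 over the higher and -0.78 over the lower ones. Of the higher genes, 31 carry only a predicted or clone name, against 4 of the lower.

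**Figure D2:**
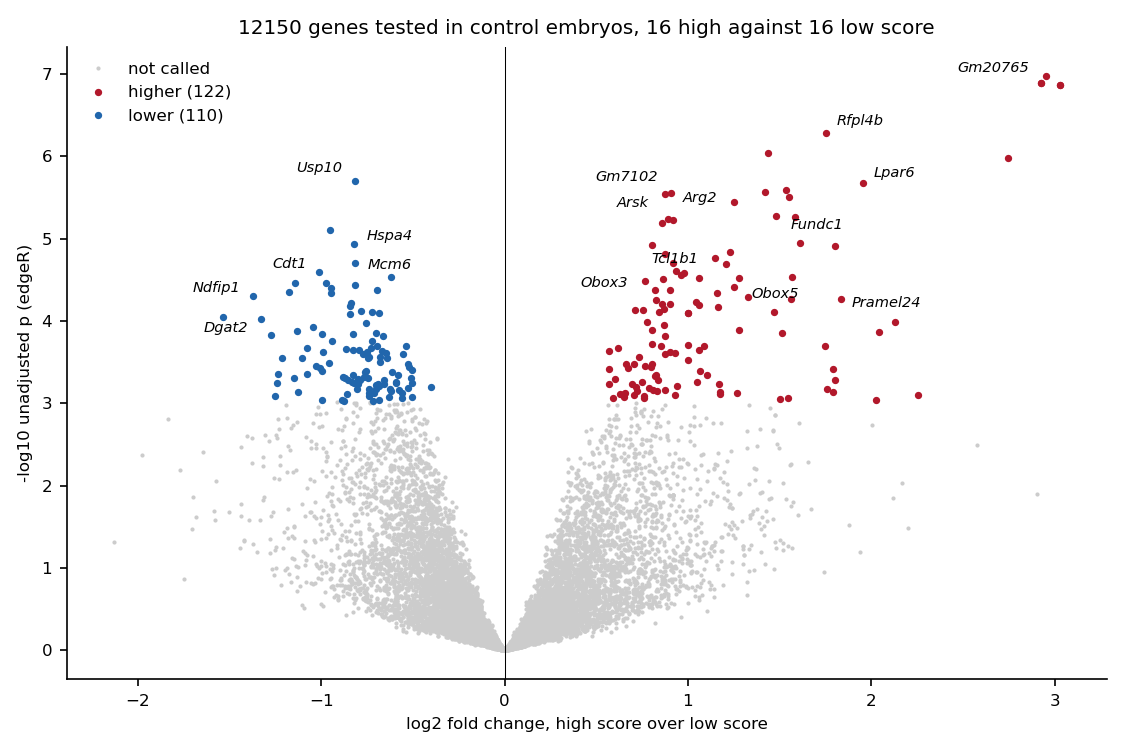
The log2 fold change of high-score over low-score control embryos (x axis) against -log10 of the unadjusted p (y axis) for the 12150 genes tested, with the 122 higher genes in red, the 110 lower genes in blue and the others in grey. The higher genes reach further from 0 than the lower ones.

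The number of called genes depended on single embryos. Left out in turn, the 32 embryos gave between 75 and 208 higher and between 48 and 189 lower genes. Without control embryo 10, of the low group, 75 higher and 48 lower genes remained called, and without embryo 34, also of the low group, 208 and 189 were. Embryos 2, 11 and 13 of the high group and 31 of the low group had the lowest median correlation with the other controls, 0.795 to 0.799, where the median of the others was 0.849. Without these 4, an omission decided once the values were known, 29 genes were higher and 4 lower, of which 29 and 3 were among the genes called with all 32 embryos. Whether a call held was followed gene by gene for the 58 called genes named here, not for all 232. Of these 58, 13 kept their call in each of 20 other fits of high against low and each of the 32 fits without 1 embryo. They were Rfpl4b, Fundc1, Arg2, Gm7102, Arsk, Limch1, Arid4a, E330034G19Rik, B020031M17Rik, Gm21818, Gm11237 and Gm20765 among the higher genes, and Usp10 among the lower ones. B020031M17Rik and Gm21818 were left out of the fit without genes that share sequence with the score genes.

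**Figure D3:**
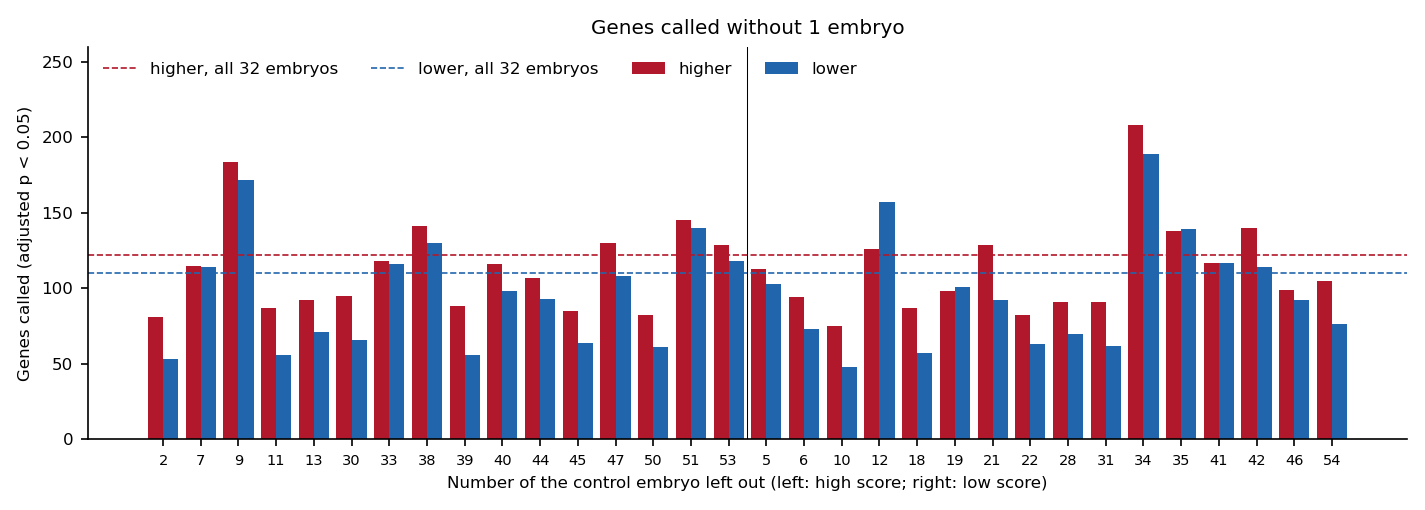
Genes called higher (red bars) and lower (blue bars) when the control embryo named on the x axis was left out, with high-score embryos on the left and low-score embryos on the right; dashed lines mark the 122 higher and 110 lower genes of the full comparison. Leaving out embryo 10 gave the fewest calls, 75 and 48, and leaving out embryo 34 the most, 208 and 189.

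Libraries of the groups also differed in composition. The 100 most abundant genes of each embryo took 26.8 ± 3.11% of its counts in high-score and 23.01 ± 2.73% in low-score embryos (SD, n = 16 each; adjusted p = 0.00432, permutation test of 100000 resamples, two-sided, over 6 measures). Mitochondrially encoded genes took 5.15 ± 2.18% in high-score and 3.81 ± 1.80% in low-score embryos (adjusted p = 0.124), and after thinning to a common total 15540 ± 385 genes in high-score and 15256 ± 394 in low-score embryos were detected (adjusted p = 0.124). Total counts, which ran from 3140419 to 8360748 over the 50 controls, B1 and B2 entries and embryo number had adjusted p-values of 0.528, 0.159 and 0.413. With detected genes as a covariate 72 genes were higher and 41 lower. Eif2s3y, a gene of the Y chromosome whose values fell into separate ranges (at most 0.501 CPM or at least 10.2 CPM), was detected in 6 of 16 high-score and 10 of 16 low-score embryos. With its detection as a covariate, an alternative added once the values were known, 71 genes were higher and 46 lower. What part these measures have in the gene results was not tested beyond these fits.

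Other genes of the transient 2-cell wave were higher with the score genes. Of 49 such genes with an entry, 42 were tested, 11 were higher and 0 lower, and 36 had a log2 fold change above 0, with a median of 0.89. Of all 12150 genes tested, 48.1% were above 0 and 1% were called higher. Gm7102, a gene of this wave on chromosome 19 (61174686 to 61176309, minus strand; coordinates here and below are GENCODE M21 on mm10), had 66.8, 133 and 169 CPM as lowest, median and highest value in high-score embryos and 35.9, 59.4 and 160 CPM in low-score embryos. All 16 high-score embryos were above the median of the low-score embryos, 10 low-score embryos were below every high-score embryo, and 1 high-score embryo was above every low-score embryo (log2 fold change 0.91, SE 0.17; adjusted p = 0.00249 in edgeR). Arg2, the mitochondrial arginase on chromosome 12 (79130777 to 79156301, plus strand), had 67.9, 128 and 257 CPM in high-score embryos and 20.8, 56.3 and 112 CPM in low-score embryos. It was 2.38-fold higher (SE 0.23 on the log2 scale, edgeR adjusted p = 0.00273), and 9 of 16 high-score embryos lay above every low-score embryo. Tmem92, the most abundant gene of the list, averaged 450 ± 89.9 CPM in high-score and 307 ± 93.4 CPM in low-score embryos (log2 fold change 0.57, edgeR adjusted p = 0.0249), and lost its call without embryo 10.

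The Eif1ad genes, a cluster of copies related to the translation factor gene Eif1a on chromosome 12, supplied 5 of those 11 genes. Of 16 with an entry, 10 were tested, all 10 were above 0, and 6 were called, with log2 fold changes of 1.47 to 1.80. Eif1ad6 (87618869 to 87622955, plus strand) had 23.6, 56.5 and 272 CPM in high-score embryos and 3.89, 20.9 and 60.1 CPM in low-score embryos (log2 fold change 1.57, SE 0.33, edgeR adjusted p = 0.00912). One high-score embryo stood far above the others, 5 were above every low-score embryo, and 11 low-score embryos were below every high-score embryo. Eif1ad7 had 18.3, 53.5 and 241 CPM in high-score embryos and 5.00, 19.8 and 78.2 CPM in low-score embryos (edgeR adjusted p = 0.013). Eif1ad6 shares 95.5% of its 31-base words with Eif1ad2, and Eif1ad7 80.6% with Eif1ad3, so reads may have been split between copies, and Eif1ad3 (edgeR adjusted p = 0.0471) lost its call in 21 of the 32 fits without 1 embryo. Eif1ad3, Eif1ad6 and Eif1ad7 lost their calls without the 4 embryos of lowest correlation.

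The largest fold changes of the whole comparison belonged to 6 genes in a row on chromosome 10, chosen here after their values were seen. Gm21304, Gm20765, Gm21312, Gm6763, Gm8764 and Gm21293 had log2 fold changes of 2.75 to 3.03, and they share 98.5% to 100% of their 31-base words with each other and 0 with the score genes, so they amount to 1 measurement. Gm20765 (104185533 to 104188000, plus strand) had 3.38, 11.9 and 63.3 CPM in high-score embryos and 0.543, 2.10 and 16.5 CPM in low-score embryos. All 16 high-score embryos were above the low-score median, and 7 were above every low-score embryo (log2 fold change 2.93, SE 0.45, edgeR adjusted p = 0.000328). Counting near-identical called genes once, a choice made after seeing the data, left 105 of the 122 higher genes and 110 lower ones.

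Among annotated genes of at least 20 CPM on average the largest rises were those of Pramel24 and Rfpl4b. Rfpl4b, a Ret-finger-protein-like gene on chromosome 10 (38820541 to 38821779, minus strand), had 7.08, 56.3 and 138 CPM in high-score embryos and 4.80, 17.3 and 39.4 CPM in low-score embryos. It was 3.37-fold higher (log2 fold change 1.75, SE 0.29, edgeR adjusted p = 0.00106), with 11 of 16 high-score embryos above every low-score embryo. Pramel24, of a family expressed in germ cells and early embryos, averaged 66.6 ± 39.05 CPM in high-score and 18.9 ± 15.4 CPM in low-score embryos (log2 fold change 1.84, SE 0.40, edgeR adjusted p = 0.0116). It lost its call without the 4 embryos of lowest correlation. Fundc1, a mitophagy receptor gene on the X chromosome (17556564 to 17572325, minus strand), had 16.9, 53.7 and 126 CPM in high-score embryos and 8.86, 21.4 and 78.7 CPM in low-score embryos (log2 fold change 1.48, SE 0.28, edgeR adjusted p = 0.0036), and 5 high-score embryos were above every low-score embryo. Xlr4b, Xlr4a and Xlr4c, lymphocyte-regulated genes of the X chromosome, were also called, with log2 fold changes of 1.51, 1.80 and 1.05. Xlr4a shares 79.3% of its 31-base words with Xlr4c, Xlr4c 62.9% with Xlr4b and Xlr4b 53.4% with Xlr4c. Reads may thus have been split between them. With Eif2s3y detection as a covariate Fundc1 and Xlr4b remained called, and Xlr4b lost its call without embryo 11. Xlr4b also lost it with limma-voom, with detected genes as a covariate, with a score without the Zscan4 genes and without the 4 embryos of lowest correlation.

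Homeobox genes of the Obox cluster on chromosome 7, which are made in the oocyte and again at genome activation, leaned higher in high-score embryos. Of 54 Obox genes and pseudogenes with an entry, 15 were tested, all 15 had a log2 fold change above 0, and 7 were called higher. Over all 12150 genes tested 48.1% were above 0 and 1% were called higher. The lean was not particular to Obox genes. Of 34 Pramel genes tested 29 were above 0 and 4 called higher, and of 72 olfactory receptor genes 67 were above 0 and 3 called higher. Obox5 (15750131 to 15759800, plus strand) had 164, 434 and 1034 CPM in high-score embryos and 57.8, 184 and 674 CPM in low-score embryos (log2 fold change 1.28, SE 0.27, edgeR adjusted p = 0.00912). The ranges overlapped widely, with 4 high-score embryos above every low-score embryo. Obox3 (15479825 to 15639902, minus strand) had 84.8, 131 and 214 CPM in high-score embryos and 30.2, 71.5 and 145 CPM in low-score embryos, and all 16 high-score embryos were above the low-score median (log2 fold change 0.76, SE 0.16, edgeR adjusted p = 0.00939). Obox1, whose promoter is printed above, averaged 111 ± 72.8 CPM in high-score and 50.7 ± 20.7 CPM in low-score embryos (log2 fold change 1.16, edgeR adjusted p = 0.0106), and shares 65.8% of its words with Obox2. Obox2 (1.27, edgeR adjusted p = 0.0442) lost its call without 1 embryo in 16 of 32 fits. Obox1, Obox2, Obox3 and Obox5 each lost their call without the 4 embryos of lowest correlation.

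The Tcl1b genes, oocyte-expressed relatives of the leukaemia gene Tcl1, lie together further along chromosome 12, and 4 of the 5 were called higher, with log2 fold changes of 1.15 to 1.33. Tcl1b1 (105159690 to 105166625, plus strand) had 232, 610 and 1565 CPM in high-score embryos and 124, 303 and 616 CPM in low-score embryos (log2 fold change 1.15, SE 0.23, edgeR adjusted p = 0.00727). In 8 of 16 high-score embryos it was above every low-score embryo. Tcl1b3 averaged 334 ± 184 CPM in high-score and 147 ± 74.9 CPM in low-score embryos (log2 fold change 1.21, edgeR adjusted p = 0.00781). The called genes, Tcl1b1, Tcl1b3, Tcl1b4 and Tcl1b5, kept their calls without any single embryo and all lost them with 25 embryos a side. Tcl1b4 also lost its call without the 4 embryos of lowest correlation, and Tcl1b5 with a score without the Tcstv genes.

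Oocyte messages taken as a list had 55 tested of 59, with 5 higher, 0 lower and a median log2 fold change of 0.29. At an unadjusted p under 0.05 there were 22 higher and 3 lower, and 42 of the 55 were above 0. Over all 12150 genes tested 16.8% had such a p in either direction, 48.1% were above 0 and 1% were called higher. The called genes of the oocyte list were Obox5, Obox1, Obox2, Tcl1b1 and Gtsf1. Spin1, a spindle-associated oocyte message and the most abundant of the list, averaged 5797 ± 1927 CPM in high-score and 4406 ± 1649.6 CPM in low-score embryos and did not pass (log2 fold change 0.42, edgeR adjusted p = 0.199). Nlrp4f was the single gene called of 16 of the subcortical maternal complex and its Nlrp relatives, at 391 ± 173 CPM in high-score and 223 ± 96.7 CPM in low-score embryos (edgeR adjusted p = 0.0431), and lost its call in 20 fits without 1 embryo. E330034G19Rik had 203, 386 and 1147 CPM in high-score embryos and 68.98, 164 and 422 CPM in low-score embryos (log2 fold change 1.42, SE 0.26, edgeR adjusted p = 0.00249). Omt2a and Omt2b, oocyte-maturation genes chosen after their values were seen, averaged 4490 and 5357 CPM in high-score embryos and 2782 and 3069 CPM in low-score embryos (log2 fold changes 0.71 and 0.82, edgeR adjusted p = 0.013 and 0.0116).

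Genes proposed to regulate genome activation otherwise differed little. Of 37 tested 4 were higher, all Obox genes, and 1 was lower, Nfyc (log2 fold change -0.40, edgeR adjusted p = 0.0411), with a median of -0.03. Nr5a2 itself, on chromosome 1 (136842571 to 136960448, minus strand), had 59.3, 117 and 174 CPM in high-score embryos and 76.3, 91.3 and 185 CPM in low-score embryos. Its means were 111 ± 28.4 CPM in high-score and 111 ± 37.04 CPM in low-score embryos (SD, n = 16 each; log2 fold change 0.01, SE 0.16, edgeR adjusted p = 0.987). Dppa3 (Stella), the most abundant gene of the list, averaged 3051 CPM in high-score and 2758.5 CPM in low-score embryos and did not pass (edgeR adjusted p = 0.651). Duxf3, a homeobox gene that turns on Zscan4 in stem cells, was too low to be tested. Chromatin factors that repress the 2-cell state in stem cells had 30 of 31 tested and 0 called by edgeR, with 4 higher and 5 lower at an unadjusted p under 0.05. Of 13 mitochondrially encoded genes, 0 were called, 12 were above 0, and 9 were higher at an unadjusted p under 0.05, with a median of 0.50. Over all 12150 genes tested, 1% were called higher, 0.905% were called lower and 48.1% were above 0. At an unadjusted p under 0.05 in either direction there were 16.8%. The mitochondrial share of the counts, given above, sums the same genes in the same libraries, so it is no separate result.

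**Figure D4:**
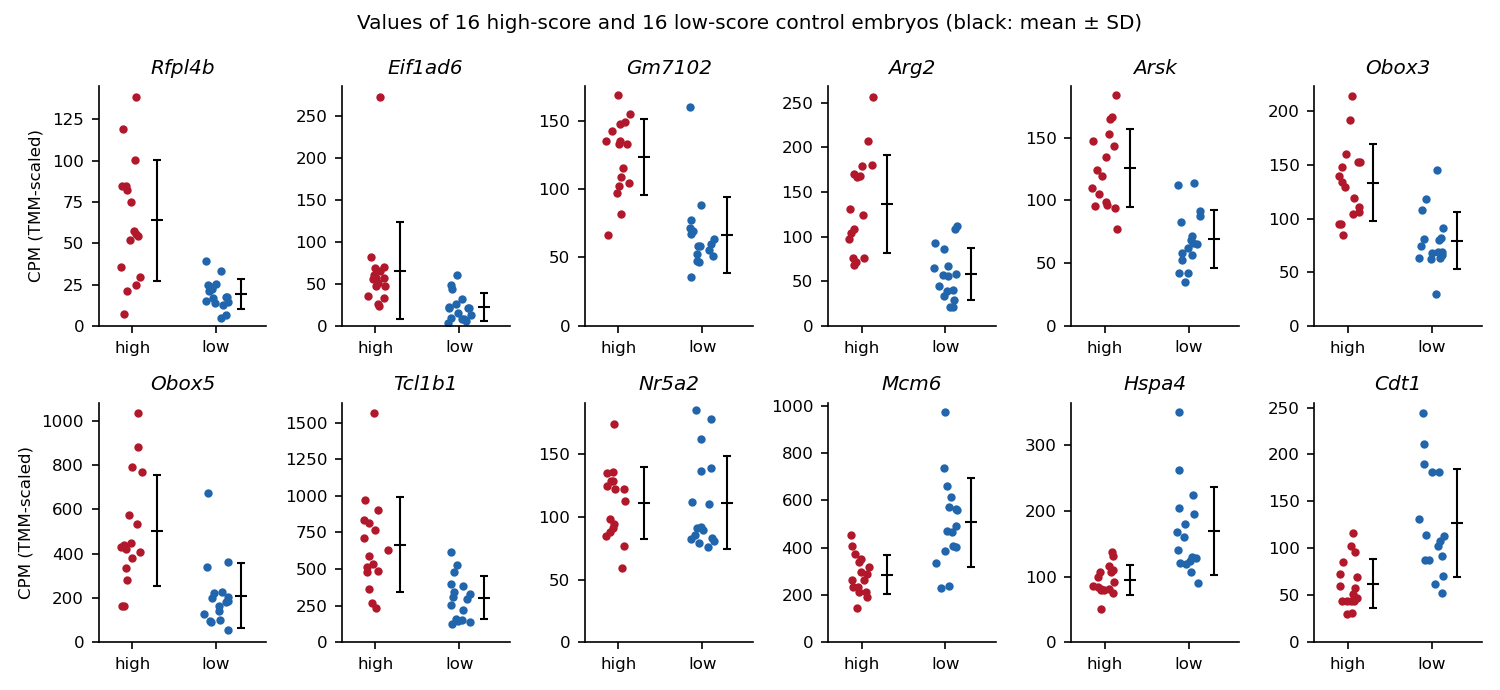
CPM with TMM-scaled library sizes of 12 genes in each of the 16 high-score embryos (red, left) and 16 low-score embryos (blue, right), with mean ± SD in black. The top row and Obox5 and Tcl1b1 are higher in high-score embryos, Nr5a2 is at 111 CPM in both groups, and Mcm6, Hspa4 and Cdt1 are lower in high-score embryos.

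A few messages for DNA replication were lower in high-score embryos. Of 52 replication genes tested, 3 were lower and 0 higher, with a median of -0.07. Over all 12150 genes tested 0.905% were called lower and 1% higher. Mcm6, a subunit of the replicative helicase, had 144, 277 and 455 CPM in high-score embryos and 230, 483 and 973 CPM in low-score embryos, and 10 low-score embryos were above every high-score embryo (log2 fold change -0.81, SE 0.17, edgeR adjusted p = 0.00773). Cdt1, which loads that helicase, averaged 62.4 ± 26.01 CPM in high-score and 127 ± 57.4 CPM in low-score embryos (log2 fold change -1.01, edgeR adjusted p = 0.00898). The third, Ccne1, encoding cyclin E1, had an adjusted p of 0.0493 in edgeR and lost its call in 23 of 32 fits without 1 embryo. Of 20 heat-shock genes tested 1 was lower and 0 higher. This gene, Hspa4, a cytosolic chaperone of the Hsp110 class, had 51.2, 88.9 and 137 CPM in high-score embryos and 89.7, 150 and 350 CPM in low-score embryos (log2 fold change -0.82, SE 0.16, edgeR adjusted p = 0.00569), and 9 low-score embryos were above every high-score embryo. Mcm6, Cdt1 and Hspa4 kept their calls without any single embryo and lost them without the 4 embryos of lowest correlation, and Hspa4 also with 25 embryos a side.

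Among called, annotated genes of at least 20 CPM on average the largest falls were those of Ndfip1, an adaptor of Nedd4 ubiquitin ligases, and Dgat2, which makes triacylglycerol. Ndfip1 had 11.6, 27.2 and 49.7 CPM in high-score embryos and 13.9, 56.1 and 265 CPM in low-score embryos (log2 fold change -1.37, SE 0.30; adjusted p = 0.0113 in edgeR). All 16 high-score embryos were below the low-score median, and 10 low-score embryos were above the high range. Dgat2 averaged 14.9 ± 9.17 CPM in high-score and 37.7 ± 22.4 CPM in low-score embryos (log2 fold change -1.33, edgeR adjusted p = 0.0148). Tomm40, the pore of the mitochondrial import channel, averaged 51.4 ± 28.7 CPM in high-score and 116 ± 53.8 CPM in low-score embryos (log2 fold change -1.17, edgeR adjusted p = 0.0105). The other falls named by the same rule were Gorasp1, Socs3, Susd6, Pfkfb3, Cep76, Isyna1, Mtx2, A4galt, Rbfa, Creb1 and Dmrtb1, with log2 fold changes of -1.24 to -0.996. Each of these falls lost its call without the 4 embryos of lowest correlation, as did Ndfip1, Dgat2 and Tomm40. Usp10, a deubiquitinase chosen after its values were seen, averaged 150 ± 43.7 CPM in high-score and 267 ± 61.6 CPM in low-score embryos (log2 fold change -0.82, SE 0.15, edgeR adjusted p = 0.00249).

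Machinery of translation and transcription gave few calls, and at an unadjusted p under 0.05 more of its genes were lower than higher. That count was 18 lower and 1 higher of 79 for ribosome biogenesis, and 13 lower and 3 higher of 45 for translation initiation. It was 12 lower and 4 higher of 92 for RNA polymerase II, and 3 lower and 0 higher of 86 for ribosomal proteins. Over all 12150 genes tested, 16.8% had such a p in either direction. The RNA polymerase II genes were near that share, and the ribosomal protein genes below it. At an adjusted p under 0.05 in edgeR, 0.905% of all genes tested were lower and 1% higher. Of 79 ribosome biogenesis genes 3 were lower, Wdr43, Ddx56 and Noc4l, and 1 was higher, Taf1d, with a median of -0.16. Wdr43, of the small-subunit processome, averaged 605 ± 160 CPM in high-score and 947 ± 333 CPM in low-score embryos (log2 fold change -0.64, edgeR adjusted p = 0.0272). Of 45 translation initiation genes 1, Eif5, was lower, at 1426 ± 291 CPM in high-score and 2170 ± 942 CPM in low-score embryos (edgeR adjusted p = 0.0392), with a median of -0.18. One of 86 ribosomal protein genes, Rpl13, was lower (log2 fold change -0.50, edgeR adjusted p = 0.0332). Among 92 genes of the RNA polymerase II machinery Polr2e and Med9 were lower and Taf1d higher. Of 55 genes of G2 and mitosis Nek2 was lower, and the log2 fold change of Ccnb1, the most abundant, was 0.14 (edgeR adjusted p = 0.612). Without 1 embryo Med9 lost its call in 23 of 32 fits, Nek2 in 13, Eif5 in 12, Polr2e in 9, Rpl13 in 7, Ddx56 in 4 and Wdr43 in 3, and all 7 lost it without the 4 embryos of lowest correlation. Proteasome, splicing, nuclear oxidative phosphorylation, maternal decay, pluripotency, trophectoderm, p53, stress, immediate-early and core histone lists had 0 called genes by edgeR, and 0 to 11 members in a direction at an unadjusted p under 0.05. Of 47 proteasome genes 11 were lower and 0 higher by that count, so the lean to lower was not limited to translation and transcription. Splicing had 6 lower and 8 higher, and nuclear oxidative phosphorylation 9 lower and 4 higher.

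Markers of other cells that an embryo sample could hold were mostly too low to test. Of 19 cumulus cell markers 2 were tested and 0 called, 2 were at 0 in all 32 embryos, and their summed level ran from 3.26 to 54.2 CPM in high-score and from 0.914 to 41.2 CPM in low-score embryos. For 13 sperm markers the sums ran from 148 to 427 CPM in high-score and from 167 to 361 CPM in low-score embryos, mostly of Odf2, with 4 at 0. For 11 blood markers they ran from 20.5 to 147 CPM in high-score and from 15.9 to 147 CPM in low-score embryos, with Hba-a1 and Hba-a2 the 2 markers tested and 4 at 0.

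Likeness to the score over all 50 controls is given as a description, since the rule used these embryos. Among genes of at least 20 CPM on average the highest Spearman correlations with the score were those of Arsk (0.71), B020031M17Rik (0.70), Limch1 (0.69), Gm21818 (0.69), Gm11237 (0.69), Arg2 (0.68), E330034G19Rik (0.68), Arid4a (0.67), Eif1ad6 (0.67) and AA792892 (0.66). Arsk, a lysosomal sulfatase gene on chromosome 13 (76060422 to 76098660, minus strand), had 77.5, 122 and 184 CPM in high-score embryos and 34.98, 65.8 and 114 CPM in low-score embryos, with 9 of 16 high-score embryos above every low-score embryo (log2 fold change 0.88, SE 0.16, edgeR adjusted p = 0.00249). Limch1, encoding a regulator of actin and myosin, had 53.4, 74.4 and 111 CPM in high-score embryos and 20.5, 37.8 and 76.8 CPM in low-score embryos (log2 fold change 0.89, edgeR adjusted p = 0.0036). B020031M17Rik and Gm21818 share 5.89% and 55.3% of their 31-base words with the score genes, and the part of shared reads in their likeness was not tested. Leaving every gene that shares a word out of the test, decided once the values were known, left 117 higher and 108 lower genes.

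The SR1848 embryos took no part in the choice of the high and low controls, so the same score was related to the same genes in them. Over the 80 SR1848 embryos the slope on the score, in log2 change per unit of score, was positive in 16% and negative in 15.3% of 15969 genes at an adjusted p under 0.05 in edgeR. Of the 122 genes higher in high-score controls, 72 (59.02%) had a positive slope, 4 a negative one and 46 were not called. Over all genes tested in the controls 17.2% were positive. The 72 count near-identical copies singly, with all 6 tandem genes of chromosome 10 among them, and counting such copies once left 105 of the 122. The 122 also hold Gm21761 and Gm21818, which share 72.2% and 55.3% of their 31-base words with the score genes. Gm21762, B020031M17Rik and Gm21731, called in the controls too, share 9.4%, 5.89% and 2.61%. What part copies and shared reads have in the 59.02% was not tested. Of the 110 lower genes, 14 (12.7%) were positive, 21 (19.1%) negative and 75 not called, and over all genes 19.2% were negative, so the lower genes' share with a negative slope was near the background. The SR1848 scores lie mostly above those of the controls, so these slopes cover another range of the score.

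The higher genes fell on both sides of this comparison. Rfpl4b had a slope of 1.28 (SE 0.15, edgeR adjusted p = 3.09e-11) in SR1848 embryos, Eif1ad7 1.34 (edgeR adjusted p = 2.27e-23), Gm7102 0.81 (edgeR adjusted p = 1.03e-19), Obox3 0.86 (edgeR adjusted p = 2e-07) and Arsk 0.63 (edgeR adjusted p = 2.54e-14). All 6 called Eif1ad genes and all 6 of the tandem genes on chromosome 10 had positive slopes. By contrast Obox5 had a slope of 0.02 (SE 0.10, edgeR adjusted p = 0.886), Tcl1b1 -0.13 (edgeR adjusted p = 0.431), E330034G19Rik -0.28 (edgeR adjusted p = 0.124) and Nlrp4f -0.30 (edgeR adjusted p = 0.0113). Of the 4 called Tcl1b genes 0 had a called slope in either direction, and of the 7 called Obox genes 3 had a positive one.

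The difference itself, the slope in DMSO embryos minus the slope in SR1848 embryos, was called in 878 of 17163 genes (5.12%), 329 above 0 (1.92%) and 549 below 0 (3.2%). It was 0.83 for Obox5 (edgeR adjusted p = 0.00937), 0.81 for Obox1, 0.84 for Tcl1b1 (edgeR adjusted p = 0.0201), 1.17 for E330034G19Rik (edgeR adjusted p = 0.0031) and 0.89 for Nlrp4f (edgeR adjusted p = 0.00409). For Rfpl4b it was -0.20 (edgeR adjusted p = 0.701), for Gm7102 -0.28 and for Arsk -0.06, none of them called. In simulated counts this test recovered 15% of genes whose slopes differed by 1, so an uncalled difference does not show equal slopes. In all the difference was called above 0 for 45 of the 122 higher genes and below 0 for 30 of the 110 lower ones. These genes were chosen for their difference in the same DMSO embryos, which favours that direction, so the counts are a description. Mcm6 (-0.69, edgeR adjusted p = 0.00649), Hspa4 (-0.72, edgeR adjusted p = 0.0025) and Usp10 (-0.69, edgeR adjusted p = 0.00613) were among the lower genes with a called difference.

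**Figure D5:**
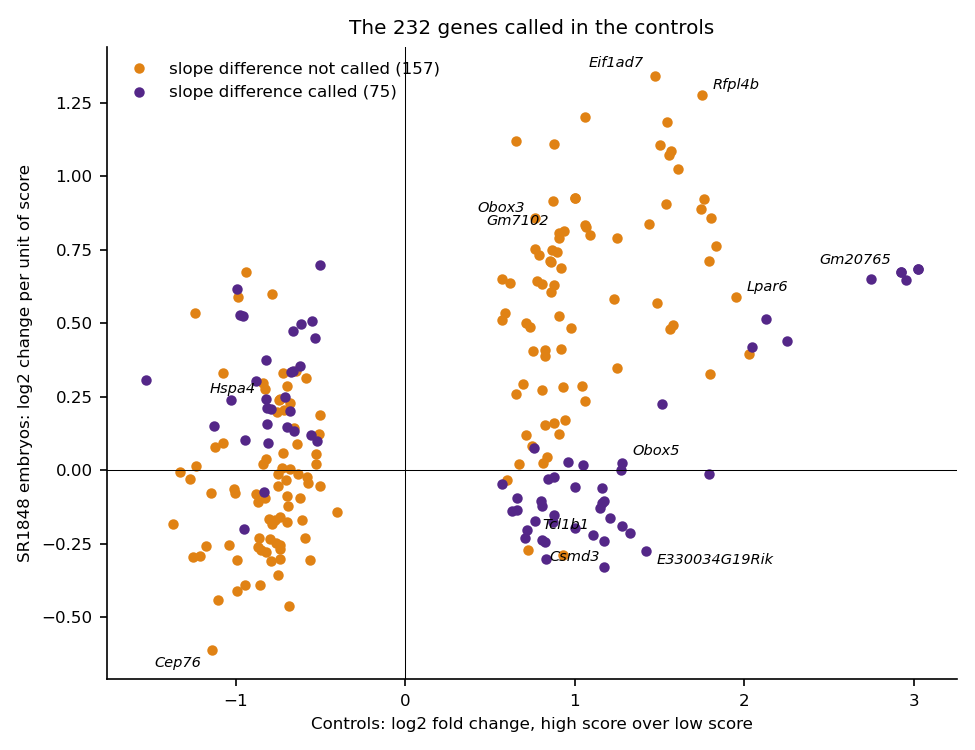
For the 232 genes called in the controls, the log2 fold change of high-score over low-score controls (x axis) against the slope on the score in the 80 SR1848 embryos (y axis, log2 change per unit of score). Genes whose slope differed between DMSO and SR1848 embryos are purple and the others orange; Rfpl4b and Eif1ad7 lie high, while Obox5, Tcl1b1 and E330034G19Rik lie near or below 0.

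The promoter words printed above were counted in the windows of all genes as a description. AAGGTCA was in 4.72% of the 32851 windows and in 3.87% of 9222 tested genes with a window, in 9 of 81 higher genes (11.1%) and in 2 of 95 lower genes (2.11%). GGATTA was in 7.06% of all windows, in 7.31% of tested genes, in 21 of 81 higher genes (25.9%) and in 5 of 95 lower genes (5.26%). Near-identical copies are counted singly here, and 5 of the 21 are tandem genes of chromosome 10. The 21 also hold Gm11756, Gm11758 and Gm13871, each sharing 92.0% to 100% of its 31-base words with another of them. The 9 genes with AAGGTCA hold Obox1, Obox2 and Obox7, of which Obox1 shares 65.8% of its words with Obox2. A match is a stretch of letters and does not show binding, and 81 of the 122 higher genes had a window to search.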

How the data were processed

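Single-embryo libraries were made with Smart-seq2 and oligo-dT priming, per the labels' protocols. The submitters' processing notes name kallisto 0.46.1 with Trim Galore 0.6.2, DESeq2 1.32.0, bcl2fastq and R 3.5.1, without their roles, and both mm10 and hg19 as builds. The authors deposited estimated counts per transcript, of which 28.5% of values were not whole, so reads of near-identical copies were shared out by estimate. Here the counts were summed per gene name and rounded; entries that are not transcripts held 0.0258% of counts and transcripts without a gene name 0.935%, and both were left out. The score used CPM over total counts with a pseudocount of 1. The design text lists 56 controls, and 50 were analysed here.

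High-score and low-score embryos were compared with edgeR 4.0.16 (TMM, filterByExpr, robust quasi-likelihood test, R 4.3.3), with Benjamini-Hochberg adjustment over all genes tested and a threshold of 0.05. The 6 score genes and their relatives were not tested. Slopes on the score were fitted in the 80 SR1848 embryos and, with the score centred within treatment, as an interaction over 130. Library measures were compared by permutation tests. Alternatives were other scalings, filters, tools (limma 3.58.1, DESeq2 1.42.0), covariates, group sizes and score genes, and leaving out embryos. In simulated counts the comparison of high with low recovered 28.2% of genes changed by 1 on the log2 scale and 99.5% of those changed by 2. The SR1848 slope test recovered 31.5% of genes with a slope of 0.5, and the test of the slope difference 15% of those differing by 1.

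Genes named are the 15 largest rises and falls among called, annotated genes of at least 20 CPM, the 3 smallest p-values and the most abundant member of each of 26 lists, Nr5a2, Duxf3, and the 10 genes most like the score; others are said to be chosen after their values were seen. The embryos, members and lists were chosen with earlier results of these data known. Totals of 3140419 to 8360748 counts limit precision for low genes.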

Additional observations from a re-analysis of the deposited data

Results flagged for a closer look

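The relation of genes to the score differed between DMSO and SR1848 embryos, by the interaction test over 130 embryos, in 878 genes. Among genes named here the DMSO slope minus the SR1848 slope (log2 change per unit of score) was above 0 for the oocyte-expressed Tcl1b5 (0.94), Tcl1b3 (0.86), Tcl1b1 (0.84) and Tcl1b4 (0.78), and for the homeobox genes Obox5 (0.83), Obox2 (0.82) and Obox1 (0.81). It was also above 0 for Gm20765 (1.19), Csmd3 (1.18), E330034G19Rik (1.17), Nlrp4f (0.89), Xlr4b (0.71), AA792892 (0.66) and Spin1 (0.61). It was below 0 for Isyna1 (-0.91), Hspa4 (-0.72), Usp10 (-0.69), Mcm6 (-0.69) and Polr2e (-0.48). Most of these genes were chosen for a difference in the same DMSO embryos, which favours the direction seen. Gm20765 had a positive slope in SR1848 embryos too (0.67), so its difference is one of size.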

How the results depend on the processing

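The 122 higher and 110 lower genes became 741 and 692 without a filter on low counts, 259 and 269 with DESeq2, 367 and 408 with the score as a continuous term over 50 controls, and 226 and 201 with a TMM-scaled score. They became 72 and 41 with detected genes as a covariate, 71 and 46 with Eif2s3y detection, and 29 and 4 without the 4 embryos of lowest correlation. The lower genes alone moved by over 1.5 times with log2 total count as a covariate (167), with 25 embryos a side (43) and with a score without the Tcstv genes (48). Leaving out 1 embryo gave 75 to 208 higher and 48 to 189 lower genes. Among 58 called genes named, 37 kept their call without any single embryo, and 0 changed direction. Nr5a2, close to 0, changed sign with total-count scaling (-0.017), no filter (-0.0033), log2 total count (-0.016), 12 a side (-0.15), 25 a side (-0.027), the continuous score (-0.044), a score without Tcstv genes (-0.0069), without AF067061 (-0.044) or TMM-scaled (-0.0063), and ran from -0.046 to 0.081 without 1 embryo. The difference in total count, high minus low, was 221020 with 12 a side, against -307600 with 16. Genes with a negative SR1848 slope numbered 1607 with 16 highest against 16 lowest SR1848 embryos. Slope differences below 0 numbered 1036 with limma-voom. The causes were not tested. No embryo lay more than 3 median absolute deviations from the median in depth or detected genes, so that fit equals the one reported.

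No paired analysis was possible because high-score and low-score embryos share no embryo number. SR1848 and DMSO embryos share 50 numbers, of which 8 pairs had a correlation of deviations over 0.1 (median 0.027), and 0 embryos correlated best with their own number. The replicate block gave 344 slope differences above and 1036 below 0, against 343 and 1036 in limma-voom without it. Depth limits what low genes can show.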
